A study of Mus musculus with 3 samples.

Results

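Penk encodes proenkephalin, and its single row in each of the 3 gene tables, 1 gene of 27998, was followed in regulatory T cells (Tregs) of mouse epidermis, dermis and lymph node. The cells described had at least 500 unique molecular identifiers (UMIs, each standing for 1 captured transcript) and at most 10% mitochondrial UMIs, which left 297 epidermal, 875 dermal and 9400 lymph node cells. Penk lies on the minus strand of chromosome 4 at positions 4133531 to 4138819 of mm10. The annotation gives 2 transcripts, Penk-201 with 2 exons and Penk-202 with 3 exons, and UMIs were counted for the gene, so these could not be told apart.

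Each tissue was represented by 1 library. All libraries came from adult FOXP3-EGFP mice (C.Cg-Foxp3tm2Tch/J), a reporter strain in which cells that express Foxp3, the transcription factor that defines Tregs, make a green fluorescent protein. Per the labels, GFP+ CD4+ CD3+ CD45+ cells were sorted from back epidermis and dermis, parted with thermolysin and the dermis then digested with collagenase, and from mashed lymph node. Skin cells were run with version 3 and lymph node cells with version 2 of the droplet kit, so kit and tissue cannot be told apart in any comparison with lymph node. How many animals were pooled, and their sex, cannot be read from the sources used here. With 1 library per tissue no comparison between tissues has a test, and all intervals below are 95% intervals for counting error only, with no check between replicates.

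Proenkephalin is cut by prohormone convertases and trimmed by carboxypeptidases to Met-enkephalin and Leu-enkephalin, short opioid peptides that act mainly on delta and mu opioid receptors. Best known from neurons and adrenal chromaffin cells, Penk is also transcribed by activated T cells, where AP-1, CREB and NF-kB factors are among its known regulators. In skin, enkephalin from Tregs has been discussed in connection with keratinocyte growth and the dampening of pain.

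The kept cells held 2205131 epidermal, 4630059 dermal and 32906839 lymph node UMIs, and medians were 6671, 4726 and 3022 UMIs per cell. A Foxp3 UMI was found in 39.7% of cells in epidermis, while the share was 47.0% in dermis and 7.17% in lymph node. The T cell marker list was detected in 91.8% or more of the cells without Penk in each library, and the Treg list (Foxp3, Il2ra, Ctla4, Ikzf2, Tnfrsf18, Tnfrsf4) in 92.2% or more of them. Epidermis and dermis shared 43 cell barcodes. In 39 of these, the copies differed at least 5-fold in depth (median 12.7-fold), 30 being deeper in epidermis and 9 in dermis, and at least 97.2% of the genes in the shallower copy were also found in the deeper one. These barcodes held 26 of the 83 epidermal and 2 of the 22 dermal Penk UMIs, so skin values are also given without them where that moved them by more than their counting interval or changed a call. Epidermis held both 111 cells with Xist and no Y-linked transcript and 101 cells with the opposite pattern, whereas lymph node held no cell with a Y-linked transcript.

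Penk was detected in all 3 tissues, and in each only a small share of cells held it. It was highest in epidermis, intermediate in lymph node and lowest in dermis, so that it did not mark skin against lymph node. The kept cells held 83 Penk UMIs in epidermis, or 37.6 CPM (Penk UMIs per total UMIs, scaled per 1000000; interval 30.0 to 46.7). Lymph node held 764 Penk UMIs, or 23.2 CPM (21.6 to 24.9). Dermis held 22 Penk UMIs, or 4.75 CPM (2.98 to 7.19). Without the shared barcodes epidermis stood at 34.3 CPM (26.0 to 44.5) and dermis at 4.56 CPM (2.79 to 7.04), so that the order was kept. The log2 ratios of epidermis to dermis and to lymph node were then 2.91 and 0.56, against 2.99 and 0.70 with them.

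The contrast within skin was large. Penk was 7.92-fold higher in epidermis than in dermis (4.90 to 13.3), and 3.74% of the 5880 genes at 20 CPM or more in either skin library passed 2-fold in this direction. Lymph node exceeded dermis 4.89-fold (3.20 to 7.84), and 9.38% of 5940 genes were at least 2-fold lower in dermis than in lymph node. Epidermis exceeded lymph node by 1.62-fold (1.28 to 2.04), under the 2-fold at which 19.7% of 5893 genes were higher and 3.11% lower in the epidermal library. The last of these log2 ratios was 0.22 when libraries were scaled by TMM, a trimmed mean of gene ratios, and 0.33 when scaled by the median of ratios. The CPM scaling put the median of all genes in that comparison at 0.19 on the log2 scale. Epidermis and lymph node were therefore close, while both lay well above dermis under every scaling run.

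**Figure D1:**
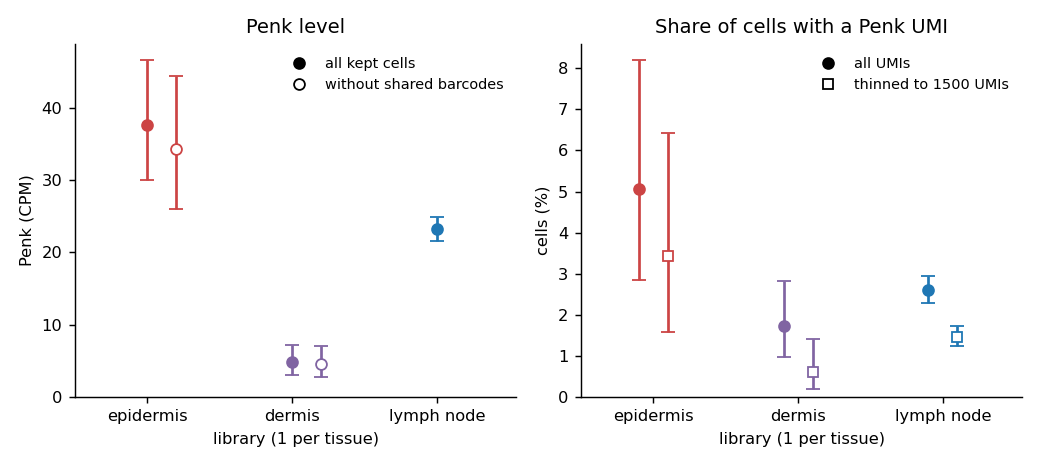
Penk level in CPM (left) and the share of cells with a Penk UMI in percent (right) in each library, 1 per tissue, with 95% intervals for counting error. Filled points use all kept cells and UMIs, open circles leave out barcodes shared by the skin libraries, and open squares use cells thinned to 1500 UMIs. Dermis is lowest in level, at 4.75 CPM against 37.6 in epidermis and 23.2 in lymph node.

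Few cells held any Penk transcript. A Penk UMI was present in 15 of 297 epidermal cells (5.05%, Clopper-Pearson interval 2.85 to 8.19), in 15 of 875 dermal cells (1.71%, 0.963 to 2.81) and in 244 of 9400 lymph node cells (2.60%, 2.28 to 2.94). Because deeper cells show more transcripts, each cell was also thinned at random to 1500 UMIs, leaving out 35, 47 and 92 shallower cells. The shares were then 3.44% in epidermis (9 of 262 cells, 1.58 to 6.42), 0.604% in dermis (5 of 828 cells, 0.196 to 1.40) and 1.46% in lymph node (136 of 9308 cells, 1.23 to 1.73). The order of the tissues was that of the levels, although the intervals of dermis and lymph node overlapped, as did those of epidermis and lymph node. Leaving out the shared barcodes gave thinned shares of 3.03% in epidermis and 0.617% in dermis, and unthinned ones of 4.71% and 1.68%.

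Cells outside a T cell gate (at least 300 genes, 2 Cd3 or Cd4 UMIs and at most 3% UMIs of other cell types) served as the measure of free RNA. None of 26 such epidermal cells held Penk, which allows a share of up to 11.5% if 3 cells are taken as the limit of a count of 0 (Clopper-Pearson upper bound 13.2%). Nor did any of 37 dermal cells (up to 8.11%, upper bound 9.49%) or 100 lymph node cells (up to 3%, upper bound 3.62%). Their median depths were 572.5, 1282 and 2157.5 UMIs. Every Penk UMI of the kept cells thus lay in a gated cell, but these few and shallower cells do not set a limit below the shares found. In dermis no cell held more than 2 Penk UMIs, with 2 in 7 cells and 1 in 8. The part of free RNA in these counts was not tested.

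Penk was unevenly spread over the cells that held it. In epidermis the 15 cells held 20, 16, 14, 9, 7 and 5 UMIs, then 2 in each of 3 cells and 1 in each of 6. The 3 highest cells carried 60.2% of all epidermal Penk, and the 6 cells with 5 or more carried 85.5%. In dermis 7 cells held 2 UMIs and 8 held 1. In lymph node 147 of the 244 cells held 1 UMI, 28 held 2, 31 held 3 or 4 and 38 held 5 or more, up to 51 in 1 cell. Those 38 cells, 0.404% of the library (0.286 to 0.554), carried 59.8% of its Penk UMIs. Cells with 5 or more UMIs made up 2.02% of epidermis (0.745 to 4.35), while none was found among 875 dermal cells, which allows a share of up to 0.343% by the same limit of 3 cells (Clopper-Pearson upper bound 0.421%).

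**Figure D2:**
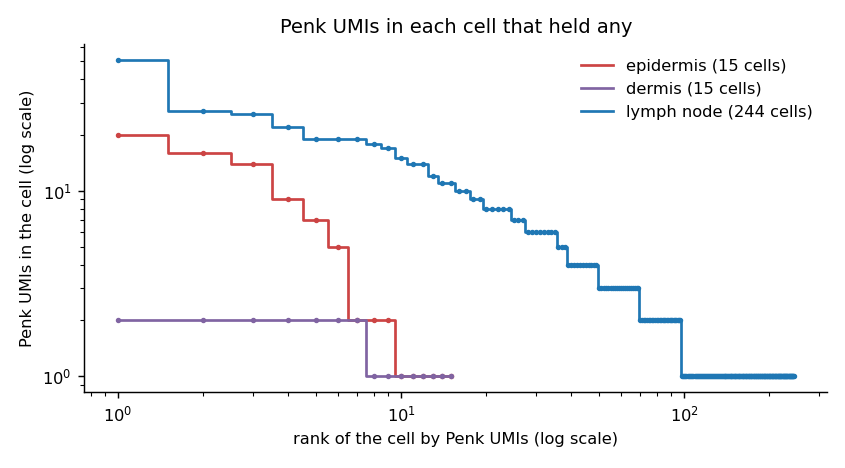
Penk UMIs (vertical, log scale) in each cell that held any, ranked from high to low within its library (horizontal, log scale), 1 point per cell. Epidermis and lymph node have a tail of cells with up to 20 and 51 UMIs, whereas no dermal cell exceeds 2.

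The epidermal level thus rested on single cells. The cell with 20 Penk UMIs, which has a barcode shared with dermis, was the deepest of the 15 with 19478 UMIs in all; without it the epidermal level was 28.8 CPM. Without the 1% of cells with most Penk UMIs, the levels were 15.3 CPM in epidermis, 1.32 CPM in dermis and 4.73 CPM in lymph node. Cells removed for their mitochondrial share also bear on it. Of 63 epidermal barcodes over the limit, 6 held 172 Penk UMIs, and 146 of these lay in 1 barcode with 4436 UMIs and 13.3% mitochondrial UMIs. Raising the limit to 20% lifted the epidermal level to 109.8 CPM, 2.24 above lymph node on the log2 scale. The removed barcodes of dermis (202) and lymph node (19) held 2 Penk UMIs each.

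Cells with Penk came from both classes of sex-linked transcripts in epidermis. Penk stood at 60.8 CPM (45.2 to 79.9) in cells holding Xist but no Y-linked UMI and at 36.0 CPM (24.3 to 51.4) in cells with the opposite pattern. These levels came from 10 and 3 cells with Penk, and 20 of the 30 UMIs of the Y-linked class lay in 1 cell with a shared barcode. The levels were 71.8 and 15.9 CPM without the shared barcodes. In dermis the Xist class held 19 UMIs in 13 of 723 cells, and none of 55 cells in the Y-linked class held Penk, which allows a share of up to 5.45% (Clopper-Pearson upper bound 6.49%).

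A Foxp3 UMI was found in 33.3% of epidermal cells with Penk and 40.1% of those without, in 60.0% and 46.7% in dermis, and in 11.9% and 7.04% in lymph node. These shares were not thinned, and cells with Penk were deeper. Median depths with and without Penk were 7265 and 6650 UMIs in epidermis, 6139 and 4689 in dermis, and 3821 and 3013 in lymph node. Within cells that held a Foxp3 UMI the Penk level was 53.5 CPM in epidermis (42.6 CPM without the shared barcodes), 5.22 CPM in dermis and 33.5 CPM in lymph node. Penk was therefore found in cells with the defining Treg transcript in each tissue.

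Markers of other cell types were read in cells with and without Penk, and the lists differed in direction. All 10 macrophage and monocyte markers and all 9 mast cell and neutrophil markers were at 0 in the Penk-positive cells of both skin libraries. In cells without Penk the macrophage and monocyte list stood at 24.7 CPM in epidermis and 5.97 CPM in dermis. The mast cell and neutrophil list stood at 0.969 and 0.442 CPM there. Levels this low leave few UMIs to be found in 15 cells, so these zeros are given as values only. Of the 12 fibroblast markers 10 were at 0, with 3 UMIs in all in each skin library (21.3 CPM in epidermis and 28.1 CPM in dermis, against 36.8 and 61.5 CPM in cells without Penk). Of the 10 Schwann cell and neuron markers only Mbp was found, at 35.5 CPM in epidermis and 37.5 CPM in dermis, against 333 and 85.3 CPM for the whole list in cells without Penk. The dendritic cell and Langerhans cell list was higher with Penk, at 830 against 424 CPM in epidermis, 628 against 504 CPM in dermis and 548 against 214 CPM in lymph node. It was led by Cd74, the invariant chain of MHC class II, and 6, 5 and 5 of its 10 members were at 0. The list of CD8 T, NK and gamma-delta T cell markers was likewise higher with Penk in epidermis (333 against 190 CPM) and lymph node (232 against 69.2 CPM), but not in dermis (37.5 against 104 CPM). It was led by Nkg7, and 6, 7 and 6 of its 8 measured members were at 0. The keratinocyte list stood at 199 CPM with Penk and 186 CPM without in epidermis, 197 and 265 CPM in dermis, and 108 and 69.9 CPM in lymph node. At least 1 of its UMIs was found in 66.7% against 44.0% of epidermal cells and in 60.0% against 39.4% of dermal cells, and 7 and 9 of its 12 members were at 0 in skin cells with Penk. The innate lymphoid list (35.5 against 4.84 CPM) and the melanocyte list (21.3 against 8.24 CPM) were higher with Penk in epidermis, on 5 and 3 UMIs led by Kit. The B cell list stood at 65.3 against 31.2 CPM in lymph node. Endothelial and mural markers were lower with Penk in each library, at 28.4 against 53.3 CPM in epidermis, 9.37 against 92.9 CPM in dermis and 69.5 against 86.4 CPM in lymph node. The part of such cells in the results below was not tested.

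Clusters of cells, built in each library without using Penk, showed where it was concentrated. In lymph node, 12 clusters were found and Penk ranged from 2.24 to 81.1 CPM over them. Cluster 3, led by Gzmb, Klrg1, Fgl2, S100a4, S100a6, Ccr2, Itgae, Maf and Icos, genes of effector Tregs and cytotoxic granules, was highest at 81.1 CPM (73.3 to 89.5). It made up 11.7% of lymph node cells and carried 51.7% of the Penk UMIs, with Penk in 82 of 1099 cells (7.46%, 5.98 to 9.18). Of the 38 cells with 5 or more Penk UMIs, 23 lay in this cluster.

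Penk was also above the library's mean in several smaller clusters. Cluster 10, led by the activation-induced genes Nr4a1, Egr2, Nfkbid and Egr1, stood at 42.7 CPM, but only 9 of its 360 cells held Penk and 1 of them had 27 UMIs. Cluster 5, led by Nrp1, Tbc1d4 and Cst7, stood at 31.7 CPM with Penk in 31 of 888 cells. Cluster 7, led by Eno3, Nkg7 and Srm and including Tnfrsf9 among its leading genes, stood at 26.5 CPM (34 of 833 cells) and held 7 of the 38 cells with 5 or more UMIs. The cycling cells of cluster 11, led by Birc5, Ccnb2 and Stmn1, stood at 28.7 CPM with Penk in 7 of 91 cells, the deepest cluster at a median of 8372 UMIs. In cluster 12, 15 cells led by B cell genes such as Ebf1, 2 cells held 3 Penk UMIs.

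Clusters 1 and 2, the lowest of lymph node, carried genes of resting and recirculating T cells. Cluster 1, led by Igfbp4, Ly6c1, Satb1 and Ccr7, stood at 2.24 CPM (1.12 to 4.0) with Penk in 11 of 1476 cells (0.745%, 0.373 to 1.33), 1 UMI in each. Cluster 2, led by Ly6c1, Rasgrp2, Satb1 and including Klf2 and S1pr1, stood at 4.65 CPM (2.66 to 7.56). Median depths were 3207 UMIs in cluster 1 and 3587 in cluster 3, so that the shares of 0.745% and 7.46% were found at similar depth. These were the clusters lowest and highest in Penk, so their gap is given as a description only. The interferon-response cells of cluster 4, led by Ifit3, Ifit1 and Isg15, stood at 8.06 CPM. Low Penk was not limited to clusters led by resting genes. Cluster 8, whose leading genes include Ccr2, Maf and S100a4 as in cluster 3, stood at 5.97 CPM (3.41 to 9.70), overlapping cluster 2. Cluster 9, led by Slc39a1 and Abhd2, stood at 5.38 CPM. Cluster 6, led by Lta, Gpr83 and Socs2 and including Il2ra, stood at 8.02 CPM.

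**Figure D3:**
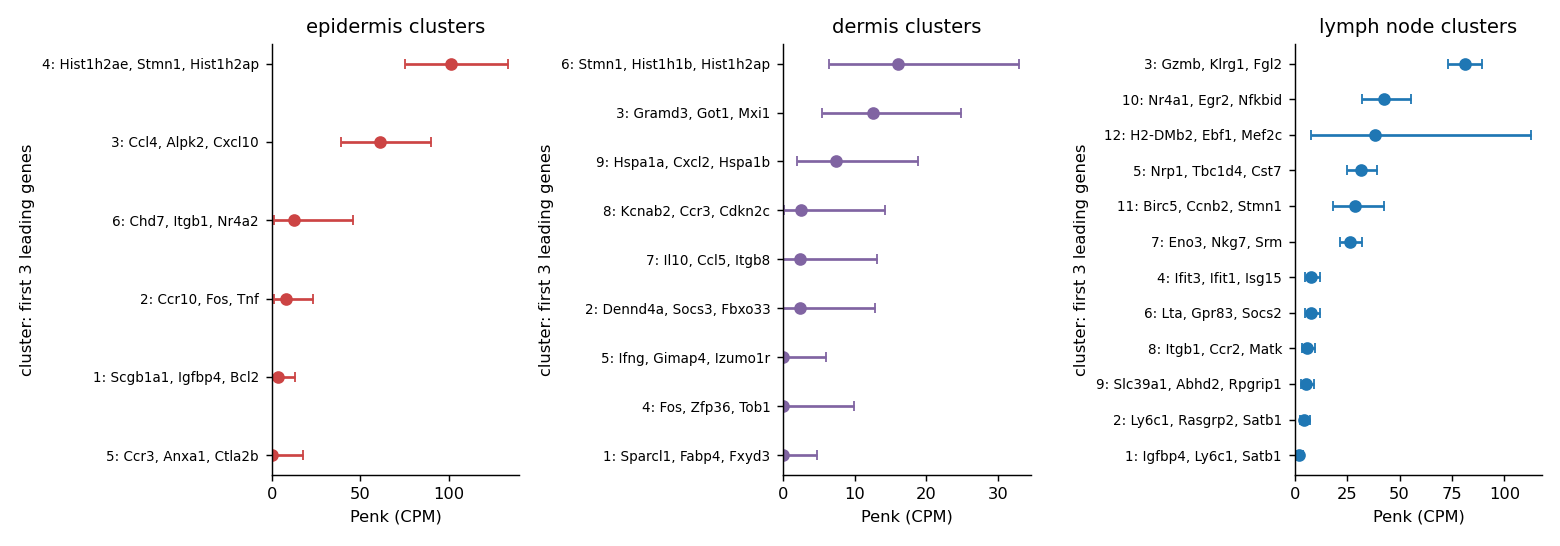
Penk level in CPM (horizontal, with 95% intervals for counting error) in each cluster of the 3 libraries, labelled by cluster number and its first 3 leading genes; the horizontal scale differs between panels. Lymph node cluster 3, at 81.1 CPM, lies apart from all other lymph node clusters except the 15 cells of cluster 12, whose interval is wide.

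Epidermal clusters differed in the same measure. Of 6 clusters, cluster 4, led by Hist1h2ae, Stmn1, Rrm2 and Top2a, genes of DNA replication and mitosis, stood at 101 CPM (75.3 to 133) with 51 UMIs in 5 of 41 cells. Cluster 3, led by the chemokine gene Ccl4 and including Ccr8, Tff1, Areg and Il1r2, stood at 60.8 CPM (39.3 to 89.7) with Penk in 4 of 58 cells. Cluster 1, whose leading genes include Igfbp4, Bcl2, Tcf7 and Ccr7, stood at 3.70 CPM (0.448 to 13.4), and none of the 34 cells of cluster 5, led by Ccr3 and Anxa1, held Penk. The highest cluster was also the deepest of the 6, at a median of 10817 UMIs, and its level rested on 5 cells, with 20 of the 51 UMIs in 1 cell. Without the shared barcodes 16 of its 41 cells were left, with 25 Penk UMIs in 2 cells, and its level was 318 CPM (206 to 469). Dermal clusters ranged from 0 to 16.0 CPM. The highest was cluster 6, led by Stmn1 and histone genes with Il1r2 and Tff1 (7 UMIs in 4 of 78 cells), then cluster 3, led by Gramd3, Got1 and Mxi1 (8 UMIs in 5 of 107 cells). In clusters 1, 4 and 5 no Penk UMI was found.

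Genes detected together with Penk could be described best in lymph node, where 243 cells with Penk were set against 9065 without, each thinned to 1500 UMIs. Of 2056 genes with at least 0.1 UMI per cell in either group, 12 were at least 2-fold higher in cells with Penk (0.584%) and 4 at least 2-fold lower (0.195%), and each counting interval lay off a ratio of 1. Of the 12 genes 9 reached 0.1 UMI per cell only in the cells with Penk, where such a gene had to be higher, so their number is not a finding. Among the 1803 genes at 0.1 UMI per cell over all cells, 3 were higher (Tnfrsf9, Maf and Cd74, 0.166%) and the same 4 lower (0.222%). Nkg7 and Bcl2a1d were among the 9 genes that passed only through the cells with Penk, so their ratios are given as values only. Nkg7, which encodes a cytotoxic granule membrane protein, had 0.255 UMI per cell with Penk and 0.0590 without, 4.32-fold higher (3.27 to 5.63). Bcl2a1d, a BCL2-family survival gene, was 3.86-fold higher (2.60 to 5.57). Tnfrsf9, a costimulatory TNF receptor of activated Tregs, was 2.56-fold higher (2.12 to 3.08), and 27.2% against 13.0% of cells held a UMI of it.

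The other higher genes lay between 2.02-fold and 2.29-fold, and all but Maf and Cd74 passed only through the cells with Penk. They were Tbc1d4, which regulates glucose uptake, the MAP kinase phosphatase gene Dusp1, Odc1 of polyamine synthesis, Anxa2, Zfp593, the transcription factor gene Maf, Mlec, Nrn1 (neuritin) and Cd74, listed among the markers above. The lower genes were Igfbp4 (3.66-fold lower, 1.99 to 7.65), Cdkn2d, Ly6c1 and Ssbp2, the last 3 between 2.12-fold and 2.18-fold lower. Igfbp4 and Ly6c1 were also leading genes of the clusters lowest in Penk. Foxp3 itself was found at similar thinned levels, 0.0288 UMI per cell with and 0.0333 without Penk (ratio 0.865, 0.345 to 1.80).

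The same genes were also read inside the cluster highest in Penk. In cluster 3, with 81 cells with Penk and 997 without, 5 of the 12 genes were at least 2-fold higher, beside 2.31% of 2378 genes higher and 2.48% lower. These 81 cells were among the 243 that gave the 12 genes, so this count is no independent check. Over all cells of the cluster 3 of the 5 (Nkg7, Odc1 and Tbc1d4) reached 0.1 UMI per cell, where 0.383% of 2090 genes were higher and 2.34% lower. Nkg7 was 4.03-fold higher (2.70 to 5.89), Bcl2a1d 2.58-fold, Mlec 2.43-fold, Tbc1d4 2.11-fold and Odc1 2.08-fold. Tnfrsf9 was at 1.25-fold (0.947 to 1.63) and Maf at 0.938-fold (0.672 to 1.28) there, so that their differences over the whole library were not found inside it.

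Grading lymph node cells by their Penk UMIs gave a steeper picture. Cells with 0, 1, 2 to 4 and 5 or more Penk UMIs numbered 9065, 147, 58 and 38, with median depths of 3025, 3375, 4920 and 5485 UMIs before all were thinned to 1500. Nkg7 stood at 0.0590, 0.0748, 0.259 and 0.947 UMI per cell over these grades. The highest grade was 16.1-fold above cells without Penk (11.1 to 22.5), but only 28.9% of its cells held an Nkg7 UMI. Tnfrsf9 stood at 0.196, 0.245, 0.638 and 1.29 UMI per cell (6.59-fold between the ends, 4.85 to 8.74). Tnfrsf4, which encodes the costimulatory receptor OX40, stood at 0.904, 1.21, 1.91 and 2.50 (2.77-fold, 2.23 to 3.38). Bcl2a1d stood at 0.0341, 0.0816, 0.138 and 0.316 (9.26-fold, 4.74 to 16.4). For these genes each step up in Penk came with a higher mean, and Nkg7 and Bcl2a1d were under 0.1 UMI per cell in cells without Penk. Nkg7, Tnfrsf9 and Bcl2a1d had been called higher in these same cells with Penk, so their steps are no independent check.

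Between the ends of this grading, 10.4% of 1844 genes were at least 2-fold higher and 1.36% at least 2-fold lower with a counting interval off 1 and at least 5 cells holding, or expected to hold, a UMI. Many of the higher genes could pass through the highest grade alone: among the 1803 genes at the minimum over all cells, 4.55% were at least 2-fold higher and 7.15% lower by fold alone. Named here for their values in this grading, and under 0.1 UMI per cell in cells without Penk, the decoy receptor gene Il1r2 was 9.99-fold higher in the highest grade (4.51 to 19.3), Pdcd1lg2, which encodes the PD-1 ligand PD-L2, 6.89-fold (2.95 to 13.8) and Serpinb6a, a serine protease inhibitor gene, 6.52-fold (3.10 to 12.1). Among genes lower in the highest grade, Ms4a4b, a membrane protein gene of T cells, stood at 2.78, 2.42, 1.59 and 1.24 UMIs per cell over the 4 grades. Of the resting T cell genes, Klf2 stood at 1.25, 1.05, 0.948 and 0.632, Bcl2 at 0.754, 0.660, 0.466 and 0.421, and Evl at 0.436, 0.327, 0.293 and 0.184 UMI per cell.

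**Figure D4:**
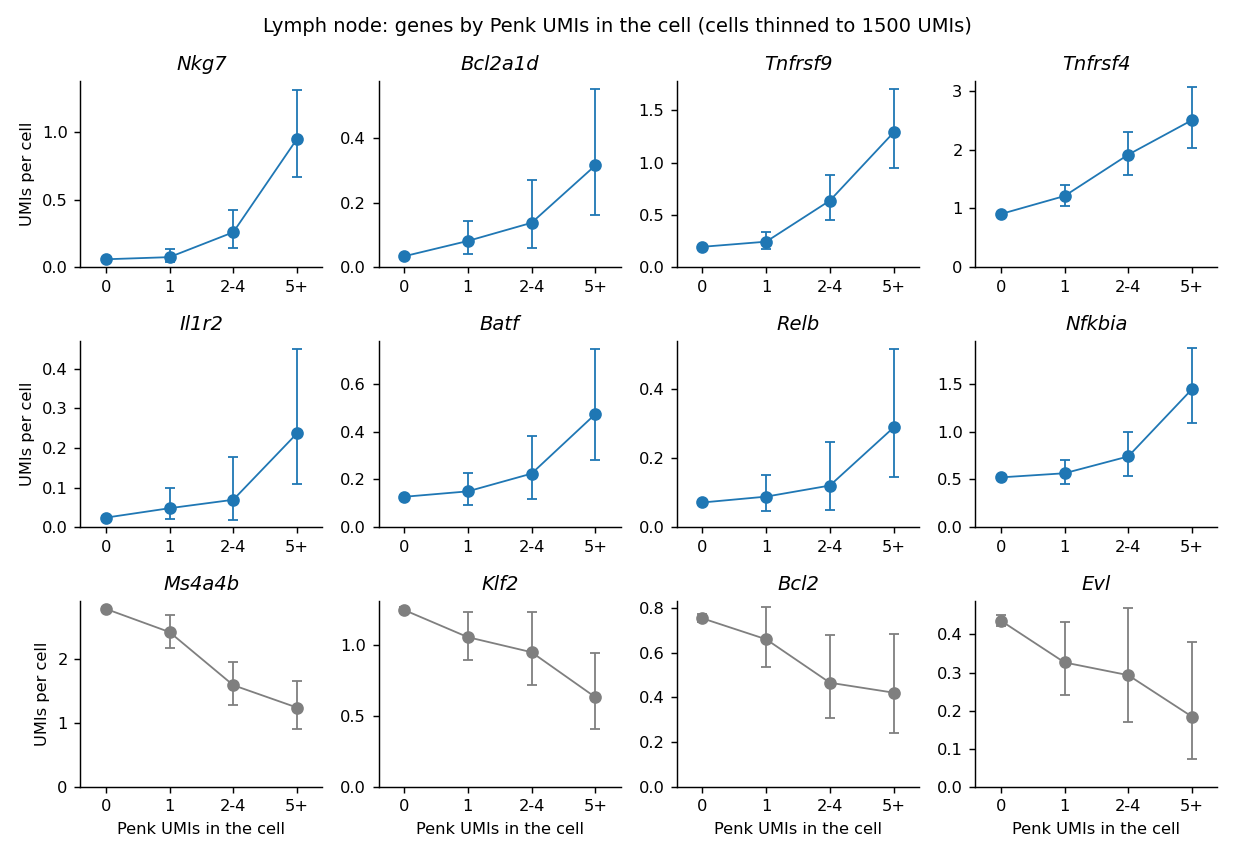
Mean UMIs per cell (vertical, with 95% intervals for counting error) of 12 genes in lymph node cells with 0, 1, 2 to 4 and 5 or more Penk UMIs (horizontal), each cell thinned to 1500 UMIs. Nkg7, Tnfrsf9, Bcl2a1d and Tnfrsf4 are among those with higher means at each step, and Ms4a4b, Klf2, Bcl2 and Evl have lower means at each step.

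Transcription factors and cofactors taken as candidate regulators of Penk were examined as a list of 28 genes, and their action on Penk was not tested. In lymph node 4 of them reached 0.1 UMI per cell over all cells (Batf, Junb, Jund and Nfkb1), and none was 2-fold different between cells with and without Penk, beside 3 genes higher and 4 lower of all 1803 so measured. All 4 were above 1, where 58.0% of all genes so measured were, with a median log2 ratio of 0.50 against 0.05 over all genes measured. Batf, an AP-1 family factor of effector Tregs, was 1.72-fold higher with Penk (1.28 to 2.26), Nfkb1 1.65-fold (1.17 to 2.25), Jund 1.22-fold (1.05 to 1.40) and Junb 1.19-fold (0.949 to 1.46). In cells with 5 or more Penk UMIs Batf stood at 0.474 UMI per cell against 0.127 in cells without, 3.73-fold higher (2.20 to 5.93). Nfkb1 was at 2.05-fold (0.884 to 4.06). Members under the minimum over all cells went both ways and are given as values only. The NF-kB subunit gene Relb stood at 0.289 UMI per cell in the highest grade against 0.0714 without Penk, and Nr4a1 at 0.211 against 0.0486. Jun stood at 0.0263 against 0.0389, and the glucocorticoid receptor gene Nr3c1 had no UMI in the 38 cells against 0.0610 UMI per cell.

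The remaining lists were read in lymph node by the same count, beside the all-gene median log2 ratio of 0.05. Of 7 measured genes of TNF receptors and NF-kB, only Tnfrsf9 was 2-fold higher with Penk, and the median was 0.40. The effector and tissue Treg list had 6 measured members, of which Maf was higher, and a median of 0.66. The Treg core list had 10 measured members with none past 2-fold and a median of 0.27, and the T cell receptor activation list 3, with Tnfrsf9 again higher and a median of 0.40. The lymphoid homing and resting list had 18 measured members with Ly6c1 lower and a median of -0.28. Medians of the immediate early, proliferation and interferon lists were 0.11, 0.29 and 0.16, with no member past 2-fold. Lists were also read in skin, on 15 epidermal and 14 dermal cells with Penk and beside an all-gene median of 0. Medians there were 0 and 0.17 for TNF receptors and NF-kB, 0.07 and -0.03 for the effector list, and -0.27 and 0.06 for the Treg core. They were 0.34 and 0.48 for T cell receptor activation, -0.32 and -0.60 for the resting list and -0.02 and 0.24 for the candidate regulators.

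In lymph node cells with 5 or more Penk UMIs the same lists stood further apart. The all-gene median there was 0.07, and the shares of 4.55% and 7.15% given above apply. Of the TNF receptor and NF-kB list Tnfrsf4, Tnfrsf9 and Nfkbia were at least 2-fold higher and Traf1 lower. Nfkbia, the NF-kB inhibitor gene, stood at 1.45 UMI per cell against 0.521 (2.78-fold, 2.09 to 3.62). Of the effector and tissue Treg list Maf, S100a4 and S100a6 were higher and none of the 6 lower, and of the Treg core list Ctla4 and Tnfrsf18 were higher and Gpr83 lower. Of the 18 resting genes none was higher and 6 were lower, Evl, Ly6c1 and S1pr1 among them, with a median of -0.78. Of 11 interferon-response genes 3 were lower (Gbp2, Gbp4 and Ifit1) and none higher.

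In skin the small number of cells with Penk limited any such comparison. In epidermis, 15 cells with Penk were set against 247 without, and 884 of 3118 genes (28.4%) were at least 2-fold higher and 240 (7.7%) lower. This excess of higher genes came with the filter, which let genes in through the cells with Penk alone: of 2176 genes at 0.1 UMI per cell over all cells, 194 (8.92%) were higher and 240 (11%) lower. Of the 884 the higher genes, 71.4% rested on 3 UMIs or fewer in the cells with Penk. In dermis, with 14 cells against 814, 675 of 2803 genes (24.1%) were higher and 203 (7.24%) lower, against 156 (7.23%) and 203 (9.41%) of the 2158 genes at the minimum over all cells. Of the 675 higher genes 72.9% rested on 3 UMIs or fewer. Requiring a counting interval off 1 and at least 5 cells holding, or expected to hold, a UMI left 52 higher and 6 lower genes of 647 in epidermis (8.04% and 0.927%) and 35 higher and 10 lower of 613 in dermis (5.71% and 1.63%). Under this stricter rule genes could still enter through the cells with Penk alone, so its excess of higher genes is not a finding. The largest ratios by the first rule, Zfp410 and Bod1 in epidermis and Msl3l2 in dermis, rested on 3, 3 and 2 UMIs.

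Without the shared barcodes, 26 of the 52 higher and 2 of the 6 lower epidermal genes were called again, and 35 of 35 and 10 of 10 in dermis. By the stricter rule Tnfrsf4 was higher in epidermal cells with Penk, at 4.33 against 2.04 UMIs per cell (2.12-fold, 1.61 to 2.75; 2.51-fold without the shared barcodes). In dermis Tnfrsf4 stood at 2.86 against 2.03 (1.41-fold, 1.00 to 1.93). Other epidermal genes with Penk were Ahr, the aryl hydrocarbon receptor gene (4.49-fold, 1.49 to 11.4), Arf6 (2.98-fold, 1.59 to 5.20) and Bcl2a1b, a further BCL2-family gene (2.65-fold, 1.39 to 4.69). Rgs1, a regulator of G-protein signalling, and Dusp1 were lower with Penk, by 2.44-fold and 2.37-fold. Ahr and Dusp1 were not called without the shared barcodes, with 4 cells holding Ahr and Dusp1 1.98-fold lower, whereas Arf6, Bcl2a1b and Rgs1 were. Dusp1 was on the higher side in lymph node, a difference between the libraries that was not tested. In dermis Bcl2l1 (4.15-fold, 1.75 to 8.47), Il2rb, a chain of the IL-2 receptor (3.94-fold, 1.66 to 8.02), Gem (2.77-fold, 1.70 to 4.29) and Rgs2 (2.28-fold, 1.53 to 3.28) were higher. Il2rb was on the other side in epidermis, at 0.239-fold (0.00596 to 1.37) on 1 UMI in the cells with Penk. Fos was lower in dermal cells with Penk, at 1.14 against 3.27 UMIs per cell (2.86-fold lower, 1.76 to 5.02), as was Zfp36.

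Of the genes followed in every library, the skin-homing receptor gene Ccr8 reached 0.1 UMI per cell only in the cells with Penk of both skin layers, so its ratios are given as values. It stood at 0.333 against 0.0445 UMI per cell in epidermis (7.48-fold, 2.04 to 23.4) and 0.357 against 0.0602 in dermis (5.93-fold, 1.84 to 14.8), on 5 UMIs in 3 cells with Penk in each. Tff1, a trefoil peptide gene, stood at 2.82-fold in epidermis (0.971 to 6.78) and 3.17-fold in dermis (0.635 to 9.77), on 6 and 3 UMIs, and both intervals included 1. Leaving out the shared barcodes put it at 1.18-fold in epidermis. The intervals of Areg, Il2ra, Ctla4, Itgae, Cd69, Il10 and Foxp3 included 1 in both skin libraries. Without the shared barcodes that of Il2ra in epidermis did not (0.247-fold, 0.0296 to 0.907, on 2 UMIs). In lymph node Ccr8 and Tff1 were rare, with 3 and 4 UMIs in cells with Penk.

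The 12 genes higher with Penk in lymph node were then read in skin. In epidermis 7 of them reached the minimum over all cells and 5 of these 7 were above 1, where 46.7% of all genes so measured were. There Nkg7 stood at 0.733 against 0.166 UMI per cell (4.42-fold, 2.05 to 8.75) on 11 UMIs in 3 cells, and it was not called by the stricter rule. In dermis 7 reached it as well and 5 were above 1, where 47.8% of all genes were, and 3 of the 12 had no UMI in cells with Penk. Tnfrsf9 stood at 1.85-fold in epidermis (0.893 to 3.45) and 2.0-fold in dermis (0.792 to 4.19), and both intervals included 1. Dermal Nkg7 stood at 1.98-fold (0.401 to 5.99), on 3 UMIs in 1 cell with Penk. All 4 lower genes had 0 UMIs in epidermal cells with Penk, with 10 to 40 UMIs in the cells without. In dermis Igfbp4 and Ly6c1 had 0 UMIs in cells with Penk, while Cdkn2d (0.653-fold, 0.0164 to 3.73) and Ssbp2 (3.63-fold, 0.0867 to 23.4) had 1 UMI each. A count of 0 allows up to 3 UMIs, so a difference was not detectable at this depth.

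Likeness to Penk over single cells was weak for every gene. The 10 genes with the highest values of the lower of the epidermal and dermal Pearson r, over 262 and 828 cells of each library thinned to the same depth, had values from 0.072 to 0.116 and were led by Phb2, Camk2n1 and Tmed10. In lymph node, over 9308 cells, Tnfrsf9 (r = 0.085) and Tnfrsf4 (r = 0.072) were highest. Correlations of this size in sparse counts are given as a description only.

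The other opioid genes were rare apart from Ogfr and, beside the low dermal Penk, Pomc. The precursor genes Pdyn (prodynorphin) and Pnoc (prepronociceptin) had 0 UMIs in all 3 libraries. Pomc, the precursor of beta-endorphin, had 4 UMIs in epidermis, 20 in dermis (4.32 CPM, beside 4.75 CPM of Penk) and 70 in lymph node (2.13 CPM). Among the receptors for enkephalin, Oprd1 (delta) had 0 UMIs in every library and Oprm1 (mu) had 4, 1 and 4 UMIs in epidermis, dermis and lymph node. Oprk1 (kappa) and Oprl1 (nociceptin receptor) had 0 UMIs in skin and 1 and 2 in lymph node. Ogfr, which encodes a nuclear-membrane receptor for Met-enkephalin, was present at 56.2, 41.7 and 64.2 CPM. Its relative Ogfrl1 had 7, 2 and 70 UMIs.

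Genes for the processing of the precursor differed among themselves in level and in the tissue where they were highest. Furin, a convertase of the secretory pathway, stood at 150 CPM in epidermis and 81.2 CPM in dermis against 13.2 CPM in lymph node. Pcsk1, the prohormone convertase of neuroendocrine cells, had 10 UMIs in epidermis (4.53 CPM), 71 in dermis (15.3 CPM) and 4 in lymph node (0.122 CPM), while Pcsk2 had 2, 0 and 0 UMIs. The carboxypeptidase gene Cpd stood at 77.5, 46.7 and 5.26 CPM and Cpm at 45.3, 187 and 8.05 CPM in epidermis, dermis and lymph node. Cpe, the carboxypeptidase of neuroendocrine granules, stood at 4.53, 3.46 and 4.47 CPM. Ctsl, a protease able to process proenkephalin, stood at 6.80, 23.8 and 6.08 CPM, and the convertase gene Pcsk4 at 6.35, 5.83 and 6.35 CPM.

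Of 23 processing and degradation genes, 6 reached 20 CPM in epidermis or lymph node and 4 of these were at least 2-fold higher in epidermis. In the comparison of dermis and lymph node 7 reached it and 5 were higher in dermis, with none lower in either comparison, where 19.7% and 24.6% of all genes were higher in the skin library. The order for Pcsk1, Cpm and Ctsl, highest in dermis, was thus not that of Penk. Neprilysin (Mme) had 0, 2 and 1 UMIs and aminopeptidase N (Anpep) none, both enzymes that degrade enkephalins. Dpp3, a dipeptidyl peptidase that also cleaves enkephalin, stood at 38.5, 34.6 and 50.2 CPM, and the aminopeptidase gene Npepps at 30.8, 41.7 and 43.4 CPM.

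The levels of the candidate regulator list were not ordered as Penk was. Of 24 list members at 20 CPM in either skin library, 10 were at least 2-fold higher in dermis and 1 in epidermis, beside 3.84% and 3.74% of all genes. Fos stood at 531 CPM in epidermis, 1880 CPM in dermis and 6.29 CPM in lymph node, and Fosb at 166, 706 and 0.669 CPM. Against lymph node, 16 of 23 members were higher in epidermis and none lower, beside 19.7% of all genes higher. In dermis 16 of 24 were higher and Bach2, a repressor of effector genes, was lower at 4.97 against 28.1 CPM, beside 24.6% of all genes higher and 9.38% lower. Dermis, lowest in Penk, was therefore the library with the highest Fos and Fosb, genes that tissue digestion is known to raise, and the part of digestion in these levels was not tested. Batf differed less, at 150, 122 and 97.9 CPM.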

How the data were processed

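Single-cell RNA libraries of sorted mouse Tregs, 1 per tissue, were analysed as deposited by the authors: raw UMI counts that had not been normalized. The submitters' processing notes name Cell Ranger and mm10; per the file headers, the skin matrices came from version 4.0.0, and no source used here gives the lymph node version. Barcodes with under 500 UMIs or over 10% mitochondrial UMIs were left out (63 in epidermis, 202 in dermis, 19 in lymph node).

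Levels were UMIs summed over cells as CPM with exact Poisson intervals, ratios had exact intervals from the binomial split of both counts, and shares had Clopper-Pearson intervals, all at 95% and covering counting error only. A share of 0 has the limit of 3 cells beside its Clopper-Pearson upper bound. Cells were thinned to 1500 UMIs where shares or genes were compared. Genes with and without Penk were set against each other inside a library, a difference counting from 2-fold at 0.1 UMI per cell or more in the higher group; a group at 0 was set to 3 UMIs as a bound that could not cross 1. Clusters came from scanpy 1.11.5 (1500 variable genes without Penk, 20 principal components, 15 neighbours, Leiden resolution 1). Scrublet marked 18, 8 and 6 cells as doublets; 6 of 9400 in lymph node is too few to count as a working call, so doublets there were not removed in effect. Alternatives used edgeR 4.0.16 for TMM factors. The comparison of cells was tried on simulated Poisson counts, with as many cells with Penk as in lymph node. It was not tried at the small number of cells with Penk in skin, or for genes under the minimum over all cells.

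Penk and all gene lists were chosen with earlier results of these data known. Named genes were 10 fixed Treg genes, the opioid and processing lists, measured regulators, the 10 highest and lowest ratios per skin library, the 10 genes most like Penk and up to 4 genes per other list; genes that stand out by the stricter rule, by lymph node or by Penk grade were named after their values were seen. Gene positions are from the GENCODE annotation of mm10. Of 317 list genes, 6 were not matched by symbol.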

Additional observations from a re-analysis of the deposited data

Results flagged for a closer look

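Penk appeared in barcodes outside the main measurement. The epidermal barcodes over the mitochondrial limit held 172 Penk UMIs, more than the 83 UMIs of all kept epidermal cells and above the 3 UMIs that a count of 0 allows. They lay in 6 of 63 barcodes (9.52%, Clopper-Pearson interval 3.58 to 19.6), with a median depth of 1705 UMIs in this class, and 146 of them in a single barcode. In dermis and lymph node, the barcodes over the limit held 2 Penk UMIs each.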

How the results depend on the processing

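No paired analysis was possible because each tissue has 1 library. Of 213 values recomputed under alternatives, 151 stayed inside the counting interval of the reported value (for counts of genes, within 1.5 times) and 62 moved. A reversal was looked for only in the ratios of epidermis to dermis and of dermis to lymph node, where none occurred. Some alternatives could not move a value, such as leaving out the shared skin barcodes in lymph node, where no cell was removed. The order of epidermis over lymph node over dermis was kept in the 16 alternative ratios of epidermis to dermis and the 15 of each skin layer to lymph node. The cause of each move below was not tested.

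Epidermal Penk was 109.8 CPM with up to 20% mitochondrial UMIs, 53.5 CPM in cells with a Foxp3 UMI, 60.8 CPM in cells holding Xist but no Y-linked UMI, 28.8 CPM without its highest cell and 15.3 CPM without the highest 1% of cells. Dermal Penk was 0 CPM in the Y-linked class, as was its share (0%), and 1.32 CPM without the highest 1%. Lymph node Penk was 33.5 CPM in cells with Foxp3, 20.1 CPM without the deepest 5%, 27.3 CPM in the Xist class, 19.4 CPM as a mean over cells and 4.73 CPM without the highest 1%. Shares of cells with at least 2 Penk UMIs were 1.53% (epidermis), 0.121% (dermis) and 0.483% (lymph node). The lymph node share was 2.53% in cells with Foxp3, 1.15% at 1000 UMIs and 2.32% at 3000 UMIs.

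The log2 ratio of epidermis to dermis was 4.47 at the 20% limit, and at least 1.81 in the Y-linked class, where dermis was at 0. That of epidermis to lymph node was 2.24 at the 20% limit, 1.15 in the Xist class, 0.22 with TMM and 0.33 with the median of ratios. Without the shared barcodes epidermal cluster 4 and the epidermal Y-linked class moved, to 318 and 15.9 CPM. The highest lymph node cluster stood at 69.3 CPM at Leiden resolution 0.5.

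Counts of genes higher with Penk moved in epidermis to 1774 (at least 2 Penk UMIs), 1690 (Penk after thinning), 1845 (minimum 0.05), 475 (minimum 0.2), 52 (the stricter rule) and 194 (minimum over all cells). In dermis these were 1304, 1348, 1529, 333, 35 and 156. In lymph node they were 132, 44, 67 and 5 for the first 4 settings, 64 at 3000 UMIs and 3 with the minimum over all cells. Counts of lower genes moved in epidermis to 129, 126 (Penk after thinning), 126 (1000 UMIs), 372 (3000 UMIs), 102 (minimum 0.2) and 6 (the stricter rule). In dermis they were 89, 79, 452 (3000 UMIs), 109 (minimum 0.2) and 10 (the stricter rule), and in lymph node 37, 14, 1 (1000 UMIs), 25 (minimum 0.05) and 1 (minimum 0.2).

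The minimum over all cells, the stricter rule, the shared barcodes, the highest cell and all lymph node comparisons of cells with and without Penk were chosen after seeing the data. In skin, 15 cells with Penk per library limit every such comparison.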
